A study of Mus musculus with 23 samples.

Results

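The genes described here are 10 transcripts of the inflammatory response of microglia, taken by symbol from a table of 35976 genes counted in microglia of the mouse striatum. They are 3 cytokines (Il1a, Il1b and Tnf), 5 chemokines (Ccl2, Ccl3, Ccl4, Ccl12 and Cxcl2) and 2 inhibitors of NF-kB signalling (Nfkbia and Tnfaip3). The rule takes them by symbol and uses no expression value, but the list was chosen with earlier results of these data known. All 10 were found and all 10 passed the filter on low counts, which 16121 of the 35976 genes passed.

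Microglia are the resident macrophages of the brain, and they are a main source of these cytokines and chemokines in brain tissue. In a resting cell NF-kB dimers are held in the cytoplasm by inhibitory proteins, and signals from IL-1, TNF or Toll-like receptors lead to destruction of the inhibitor and to entry of NF-kB into the nucleus. There it activates genes for cytokines and chemokines together with those of its own inhibitors, so that products of the same response amplify it and end it.

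All mice were male C57BL/6J, given as 9 weeks old, and self-administered an intravenous solution in 15 daily sessions of 2 hr. The Abstinence group (n = 7) took methamphetamine, a psychostimulant, at 0.05 mg/kg per infusion and then spent 21 further days in the home cage without it. The Maintenance group (n = 8) took the same dose, and its microglia were isolated directly after the last session. The Saline group (n = 8) took 0.9% saline and was also sampled directly after the last session. Since no saline group went through the 21 days, drug history, the added age and the time in the home cage cannot be told apart in either contrast of Abstinence. The labels do not say that each library came from its own mouse, so p-values measure the spread between these libraries. The question the design poses is whether striatal microglia differ in RNA while the drug is being taken and after a period without it.

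The libraries held 54970954 to 94827095 counts each, and the 10 genes took 0.477% to 0.816% of them. The 10 microglial markers examined were present in every group, with median levels of 3757, 3833 and 4289 CPM for Tmem119 in Abstinence, Maintenance and Saline. CPM is the counts-per-million unit, here after library sizes were scaled with TMM factors, which correct for differences in RNA composition. The sample label for tissue reads neuronal, while the label for cell type reads microglia. Maintenance replicates 6 and 7 had counts for 12459 and 12740 genes, against a median of 16277 over all 23 libraries, and Maintenance replicate 8 carried RNA of choroid plexus, with 40528 CPM of Ttr. For some of the results that these 3 libraries alter, the value without them is given as well. In such bulk libraries, fewer cells of a type and less RNA per cell cannot be told apart.

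The DNA before an annotated start of transcription is shown for 4 of these genes because their RNA levels, described further on, varied together to different degrees. Il1a and Nfkbia were among the genes that varied most closely with the others between libraries of 1 group, and Ccl12 and Cxcl2 varied least closely with them. The RefSeq sequences (GRCm38.p6) are the 120 bases before the start of transcription in the promoter annotation, 5′ to 3′ on the strand of the gene. For Il1a and Il1b that start lies inside the RefSeq span of the gene (for Il1a chr2:129299609-129310186). The window of Il1a shown here is therefore within that span, and distances are counted from the start in the promoter annotation. Capitals mark TATAAA, the TATA box, and matches to the NF-kB consensus, searched on both strands.
Il1a, chr2:129309973-129310092, minus strand: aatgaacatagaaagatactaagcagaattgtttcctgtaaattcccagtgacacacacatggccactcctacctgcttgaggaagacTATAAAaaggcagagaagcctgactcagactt
Nfkbia, chr12:55492648-55492767, minus strand: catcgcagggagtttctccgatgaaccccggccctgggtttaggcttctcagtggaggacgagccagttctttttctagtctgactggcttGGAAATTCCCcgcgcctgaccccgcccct
Ccl12, chr11:82101725-82101844, plus strand: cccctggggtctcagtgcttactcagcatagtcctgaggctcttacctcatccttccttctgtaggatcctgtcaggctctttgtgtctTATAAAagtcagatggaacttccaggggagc
Cxcl2, chr5:90903779-90903898, plus strand: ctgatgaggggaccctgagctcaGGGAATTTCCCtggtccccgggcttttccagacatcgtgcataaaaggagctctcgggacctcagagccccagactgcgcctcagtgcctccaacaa
Il1a and Ccl12 each had TATAAA at 32 and 31 bases before the start. Nfkbia held GGAAATTCCC from 29 bases before the start, and in Cxcl2 matches on both strands overlapped at 97 and 96 bases before the start. RefSeq promoters of 300 bases (250 before the start and 50 from it) were matched for 8 of the 10 genes, those of Ccl2 and Ccl4 not being shown. TATAAA or its reverse complement TTTATA was present at any position in 6 of these 8, against 15.7% of 27025 genes with such an entry. In Il1a, Il1b, Tnf and Ccl12 it lay 29 to 32 bases before the start, and in Tnfaip3 225 bases before it. In Nfkbia the match was on the other strand, 19 bases after the start. The last 2 are not at the place of a TATA box. The NF-kB consensus was matched in 3 of the 8 (Nfkbia, Tnfaip3 and Cxcl2), against 5.14% of those genes. The promoter of Ccl3, which is not shown, held neither pattern. Ccl3 varied more closely with the other genes than Nfkbia did, with a mean correlation of 0.694 against 0.653. These matches describe letters in the window and do not show that a factor binds there.

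Per length of transcript the 10 genes spanned more than 2 orders of magnitude in every group, and the order was almost the same in each. Ccl4, a chemokine that attracts monocytes and T cells, was highest, with 2425 ± 382, 2248 ± 449 and 2513 ± 432 CPM per kb in Abstinence, Maintenance and Saline (SD, n = 7, 8 and 8). Nfkbia came next, at 1548 ± 94.7, 1589 ± 231 and 1557 ± 181 CPM per kb. Cxcl2 was lowest, at 7.67 ± 3.23, 12.5 ± 3.85 and 7.88 ± 3.95 CPM per kb.
Between these ends, the neighbours with overlapping ranges of mean ± SD were Il1a and Ccl3, Tnf and Ccl12, in Abstinence also Ccl12 and Tnfaip3, and in Maintenance also Tnf and Tnfaip3. Il1a averaged 605 ± 84.4, 665 ± 109 and 543 ± 128 CPM per kb, and Ccl3 averaged 497 ± 70.3, 695 ± 132 and 598 ± 139 CPM per kb in Abstinence, Maintenance and Saline. Il1a therefore stood above Ccl3 in Abstinence alone. Ranked by mean CPM among the 16121 genes tested, Nfkbia was number 46 and Ccl4 number 68 in Saline microglia, while Cxcl2 was number 7990.

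None of the 10 genes passed the test across all genes in any of the 3 comparisons, which were edgeR quasi-likelihood tests called at a Benjamini-Hochberg adjusted p under 0.05. Of all genes tested, 0.0186% passed for Abstinence against Saline, 0.949% for Abstinence against Maintenance and 0.707% for Maintenance against Saline. At an unadjusted p under 0.05 the members numbered 3, 4 and 3 of 10 in these comparisons, where all genes gave 4.39%, 11% and 11.8%. The ranges of the groups overlapped for all 10 genes in all 3 comparisons, whereas 0.198%, 0.403% and 0.416% of genes had ranges that did not overlap.
Direction was mixed as well. The fitted log2 fold change was above 0 for 4 of 10 genes in Abstinence against Saline (median -0.02), for 3 of 10 in Abstinence against Maintenance (median -0.05) and for 8 of 10 in Maintenance against Saline (median 0.10), where 51.3%, 50.8% and 50.6% of all genes were above 0 with a median of 0.01 in each. In 1 test over all 3 groups, 0 of 10 genes passed as well, against 1.07% of all genes. The 3 comparisons share libraries and are not independent of each other.

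**Figure D1:**
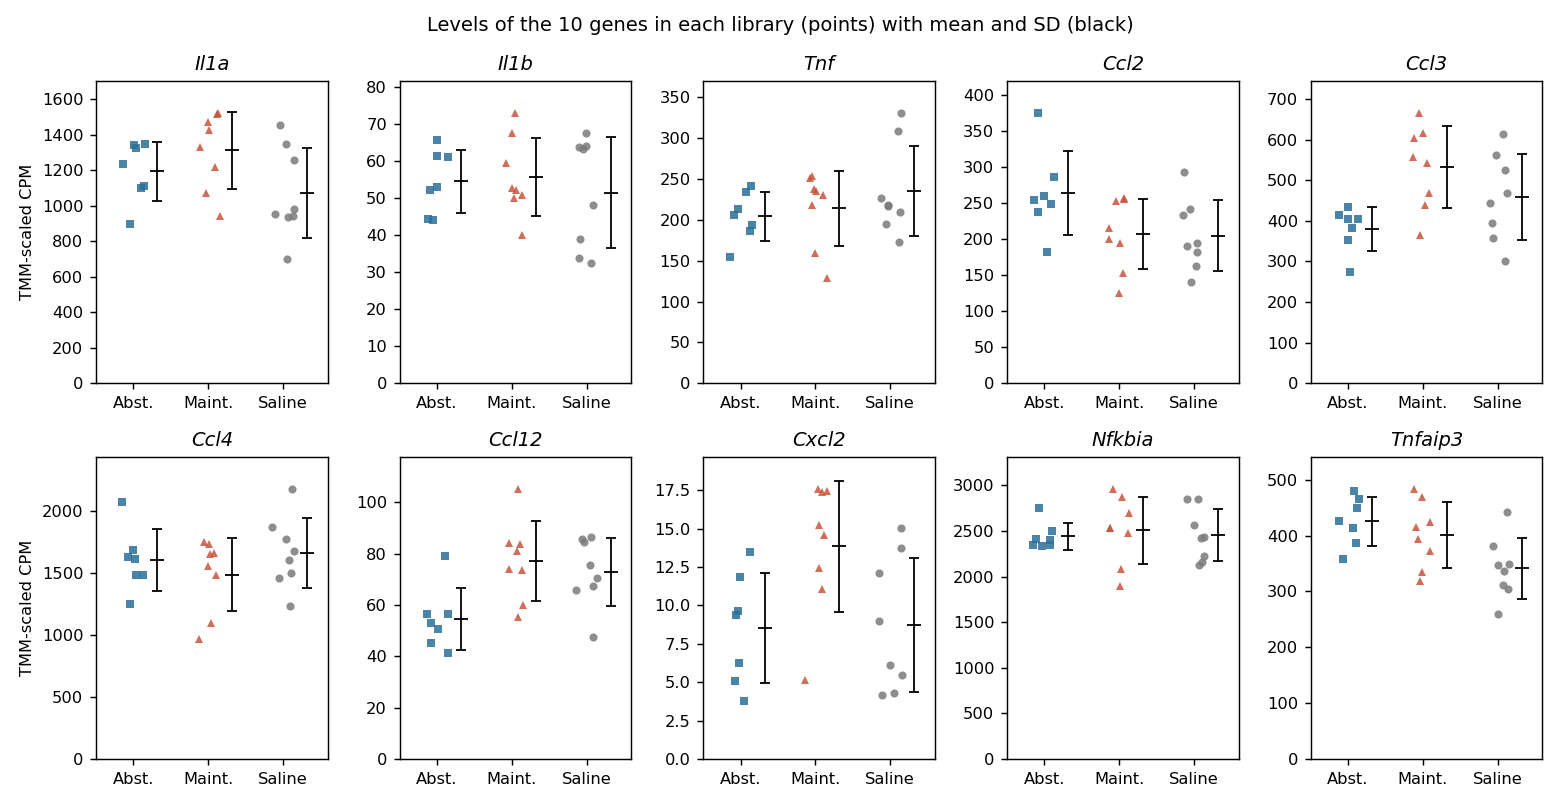
TMM-scaled CPM (vertical axis, linear from 0) of each of the 10 genes in every library (points), with the group mean and SD in black, for Abstinence (n = 7), Maintenance (n = 8) and Saline (n = 8). All 7 Abstinence libraries lie at or below 434 CPM for Ccl3, and the 3 groups overlap in every panel.

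Il1a encodes interleukin-1 alpha, a cytokine active as made and released by damaged or activated cells, and lies on chromosome 2 (chr2:129299609-129310186, minus strand, GRCm38.p6, 7 exons). It had 898 CPM at the lowest, 1233 at the median and 1345 at the highest in Abstinence libraries. Maintenance libraries held 942, 1378 and 1519 CPM, and Saline libraries 701, 968 and 1455 CPM. Saline was the most spread group, with replicate 8 at its foot and replicate 1 at its head, and 7 of 8 Maintenance libraries lay above the Saline median.
The log2 fold change of Il1a was 0.16 ± 0.13 (SE) for Abstinence against Saline (adjusted p = 0.999) and -0.14 ± 0.13 for Abstinence against Maintenance (adjusted p = 0.838). For Maintenance against Saline it was 0.29 ± 0.13, with a 95% interval of 0.03 to 0.55 (adjusted p = 0.342). A transcript on the other strand, Gm14023, overlaps Il1a with a median of 26 CPM, and without knowledge of the strand its reads cannot be told apart.

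Il1b, the gene of interleukin-1 beta, which needs cleavage by caspase-1 before it acts, lies close by on the same chromosome (chr2:129364569-129371164, minus strand, 7 exons) and was far lower. It ranged over 44 to 65.6 CPM in Abstinence, 40.1 to 72.8 in Maintenance and 32.4 to 67.4 in Saline. Its Saline libraries split into 4 at 32.4 to 48 CPM and 4 at 63.1 to 67.4 CPM. The 3 log2 fold changes of Il1b lay between -0.03 and 0.11, each with a 95% interval that spans 0 (for Abstinence against Saline it ran from -0.24 to 0.41).

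Tnf, the gene of tumour necrosis factor, a cytokine shed from the cell surface by Adam17, lies on chromosome 17 (chr17:35199367-35202007, minus strand, 4 exons). It had 154, 206 and 241 CPM (lowest, median, highest) in Abstinence, 128, 233 and 254 in Maintenance and 173, 218 and 330 in Saline. The 2 highest values, 330 and 309 CPM, were both in Saline libraries, replicates 1 and 5. Its log2 fold change was -0.20 ± 0.14 for Abstinence against Saline (95% interval -0.50 to 0.09), -0.07 ± 0.14 for Abstinence against Maintenance and -0.13 ± 0.14 for Maintenance against Saline. The last of these was 0.01 without Maintenance replicates 6, 7 and 8.

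Among the chemokines, Ccl3 and Ccl12 averaged lower and Ccl2 higher in Abstinence than in both other groups, while Cxcl2 averaged highest in Maintenance. None of these differences passed the test across all genes. Ccl3 and Ccl4 encode related chemokines that attract monocytes and T cells. Ccl2 and Ccl12, a chemokine of mice, recruit monocytes through Ccr2, and Cxcl2 attracts neutrophils through Cxcr2.

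Ccl3 (chr11:83647843-83649378, minus strand, 3 exons) had 273 CPM at the lowest, 404 at the median and 434 at the highest in Abstinence. In Maintenance it had 365, 551 and 665 CPM, and in Saline 300, 457 and 613 CPM. None of the 7 Abstinence libraries reached the median of Maintenance or of Saline. Abstinence against Maintenance gave a log2 fold change of -0.48 ± 0.14, with a 95% interval of -0.77 to -0.20 (adjusted p = 0.0927). For Abstinence against Saline it was -0.27 ± 0.14 (adjusted p = 0.999), and for Maintenance against Saline 0.22 ± 0.13 (adjusted p = 0.579).
Ccl3 missed the threshold for Abstinence against Maintenance in the edgeR fit of all libraries. It passed with DESeq2 (-0.50, adjusted p = 0.0107) and in the edgeR fit without Maintenance replicate 8 (-0.56, adjusted p = 0.0263). Without Maintenance replicates 6, 7 and 8 together it was -0.57 and did not pass (adjusted p = 0.0592).

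Ccl12 (chr11:82101845-82103399, plus strand, 3 exons) had 41.4, 52.8 and 79 CPM at the lowest, median and highest in Abstinence. Maintenance libraries held 55.3, 77.5 and 105 CPM, and Saline libraries 47.4, 73.1 and 86.3 CPM. In 6 of 7 Abstinence libraries the level was 56.5 CPM or less, and replicate 7, at 79 CPM, stood apart from them above the medians of the other groups. Abstinence against Maintenance gave a log2 fold change of -0.50 ± 0.14 (95% interval -0.79 to -0.21, adjusted p = 0.0909) and -0.42 ± 0.14 for Abstinence against Saline (adjusted p = 0.683).
Maintenance against Saline gave 0.08 ± 0.14 for Ccl12. Against Maintenance it passed with DESeq2 (-0.51, adjusted p = 0.0194), without Maintenance replicate 8 (-0.57, adjusted p = 0.0337) and without Abstinence replicate 7 (-0.62, adjusted p = 0.0296).

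Ccl2 (chr11:82035577-82037452, plus strand, 3 exons), which binds the same receptor as Ccl12 and lies near it on chromosome 11, differed in the other direction. It had 182, 254 and 374 CPM at the lowest, median and highest in Abstinence, 126, 208 and 256 in Maintenance and 140, 192 and 293 in Saline. In 6 of 7 Abstinence libraries it lay above the median of Saline and in 6 of 7 above that of Maintenance, and the ranges overlapped. The log2 fold change of Ccl2 was 0.36 ± 0.16 for Abstinence against Saline (95% interval 0.03 to 0.70, adjusted p = 0.999) and 0.35 ± 0.16 for Abstinence against Maintenance (adjusted p = 0.415). Without Maintenance replicates 6, 7 and 8 the value against Maintenance was 0.22. For Maintenance against Saline it was 0.02 ± 0.16.

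Ccl4 (chr11:83648624-83664683, plus strand, 3 exons) overlaps Ccl3 on the opposite strand in the RefSeq annotation, so counts of the overlapping stretch are uncertain without strand. It ranged over 1247 to 2069 CPM in Abstinence, 964 to 1743 in Maintenance and 1235 to 2173 in Saline. Unlike Ccl3, it averaged lower in Maintenance than in Saline, by a log2 fold change of -0.16 ± 0.12 (adjusted p = 0.689). Maintenance replicates 8 and 6 held 964 and 1093 CPM, and all other Maintenance libraries held 1481 CPM or more. With DESeq2, changed settings or sets of libraries left out, this log2 fold change ranged from -0.18 to -0.008. The lower mean of Maintenance was thus close to absent in some of these fits. The log2 fold change was -0.05 ± 0.13 for Abstinence against Saline and 0.11 ± 0.13 for Abstinence against Maintenance, which became -0.05 without Maintenance replicates 6, 7 and 8.

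Cxcl2 (chr5:90903899-90905938, plus strand, 4 exons) was the scarcest of the 10 genes and the most spread, with 238 to 1523 counts per library. It had 3.79, 9.38 and 13.5 CPM at the lowest, median and highest in Abstinence, 5.14, 14.9 and 17.6 in Maintenance and 4.2, 7.55 and 15 in Saline. Of the 8 Maintenance libraries 7 held at least 11.1 CPM, and replicate 7 held 5.14. Its log2 fold change was -0.70 ± 0.32 for Abstinence against Maintenance (adjusted p = 0.394) and 0.67 ± 0.31 for Maintenance against Saline (95% interval 0.03 to 1.30, adjusted p = 0.383). Between Abstinence and Saline it was -0.04 ± 0.32.

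The feedback genes differed from each other. Nfkbia (chr12:55489409-55492647, minus strand, 6 exons) encodes the inhibitor that holds NF-kB in the cytoplasm. It had 2331, 2397 and 2756 CPM at the lowest, median and highest in Abstinence, 1892, 2537 and 2960 in Maintenance and 2131, 2433 and 2853 in Saline. Its group means of 2443 ± 149, 2508 ± 365 and 2457 ± 286 CPM in Abstinence, Maintenance and Saline differed by less than the SD of any group. The log2 fold changes of Nfkbia were -0.01 ± 0.08 for Abstinence against Saline, -0.04 ± 0.08 for Abstinence against Maintenance and 0.03 ± 0.08 for Maintenance against Saline, with 95% intervals that end at -0.21 and 0.20 at the widest.

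Tnfaip3 (chr10:19000910-19015410, minus strand, 9 exons) encodes A20, an enzyme that edits ubiquitin chains and stops signalling upstream of NF-kB. It had 358, 425 and 479 CPM at the lowest, median and highest in Abstinence, 318, 404 and 483 in Maintenance and 260, 342 and 442 in Saline. All 7 Abstinence libraries lay above the Saline median, as did 6 of 8 Maintenance libraries, and the ranges of all groups overlapped. The log2 fold change of Tnfaip3 was 0.32 ± 0.10 for Abstinence against Saline (95% interval 0.11 to 0.52, adjusted p = 0.589) and 0.23 ± 0.10 for Maintenance against Saline (adjusted p = 0.302). For Abstinence against Maintenance it was 0.08 ± 0.10, and -0.01 without Maintenance replicates 6, 7 and 8.

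**Figure D2:**
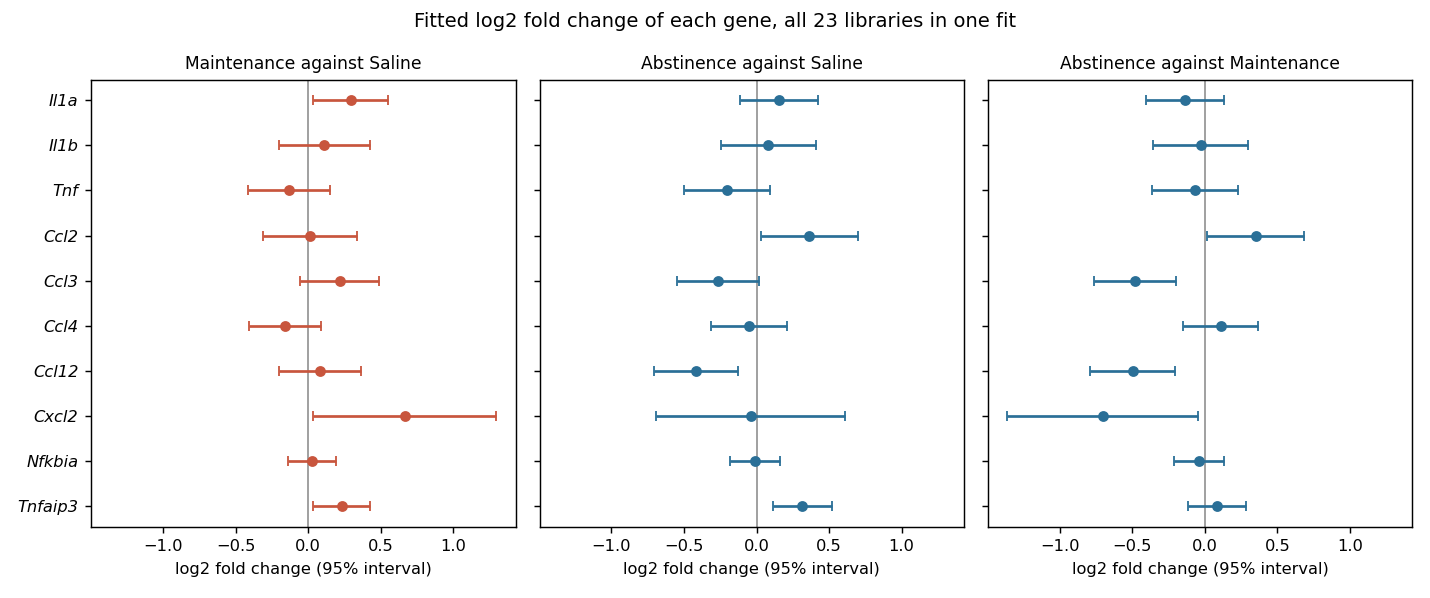
Fitted log2 fold change (point) with its 95% interval (bar) for each of the 10 genes in the 3 comparisons, from 1 edgeR fit of all 23 libraries. For Abstinence against Maintenance the intervals of Ccl3, Ccl12 and Cxcl2 lie below 0 and that of Ccl2 above 0, and none of the 10 genes passed after adjustment over 16121 genes.

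Other genes of the pathway were read from lists of signalling components, feedback genes, receptors and further targets. No gene of the 7 lists, which held 87 genes that passed the filter, was called in any comparison (0.0186% of all genes in Abstinence against Saline, 0.949% in Abstinence against Maintenance, 0.707% in Maintenance against Saline). Among 8 NF-kB subunits and their kinases, 7 had a log2 fold change under 0 in Maintenance against Saline (median -0.17, against 0.01 for all genes), and 0 of 8 had an unadjusted p under 0.05, against 11.8% of all genes. In Abstinence against Maintenance 5 of the 8 were above 0 (median 0.19), and 3 of 8 had an unadjusted p under 0.05, against 11% of all genes. The gene of smallest p in Abstinence against Maintenance was Relb, a subunit of the non-canonical NF-kB pathway, at 10.3 ± 1.59 CPM in Abstinence and 5.29 ± 2.93 CPM in Maintenance, a log2 difference of 0.96 ± 0.31 (adjusted p = 0.143).
Its difference in Maintenance against Saline was -0.61 ± 0.30 (adjusted p = 0.43), and Ikbkb, an I-kappa-B kinase, was smallest in p for Abstinence against Saline (-0.22 ± 0.11, adjusted p = 0.999). Of 14 other feedback genes, 10 had a log2 fold change above 0 in Abstinence against Saline, with 0 at an unadjusted p under 0.05. There Nfkbie, a further inhibitor of NF-kB, had the smallest p (0.22 ± 0.13, adjusted p = 0.999). The smallest p of this list belonged to Ier3 in Abstinence against Maintenance (0.19 ± 0.10, adjusted p = 0.55) and to Otud7b in Maintenance against Saline (0.32 ± 0.15, adjusted p = 0.405).

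Of 12 receptors and antagonists for the ligands among the 10 genes, 11 passed the filter. Ccr1, a receptor of Ccl3, averaged 12.7 ± 3.10 CPM in Abstinence, 22.9 ± 5.21 in Maintenance and 21.2 ± 15.8 in Saline, and had the smallest p of the list in both contrasts of Abstinence. Its log2 fold change was -0.85 ± 0.29 against Maintenance (adjusted p = 0.17) and -0.74 ± 0.29 against Saline (adjusted p = 0.835).
Il1rap, the accessory chain of the IL-1 receptor, averaged 33.1 ± 8.61 CPM in Maintenance and 22.8 ± 5.27 in Saline (0.54 ± 0.18, adjusted p = 0.168). Among 14 adaptors and kinases of IL-1, TNF and Toll-like receptors, Map3k7, the kinase TAK1, had 7.17 ± 0.80 CPM in Maintenance and 11.3 ± 3.12 in Saline (-0.66 ± 0.20, adjusted p = 0.12) and was also smallest in p for Abstinence against Saline (-0.49 ± 0.20, adjusted p = 0.951). Irak1, which relays IL-1 receptor signals, was smallest for Abstinence against Maintenance (-0.38 ± 0.14, adjusted p = 0.213). Of the 8 genes of cytokine processing and release, Pycard, the inflammasome adaptor, had the smallest p in all 3 comparisons. Its log2 fold change was -0.09 ± 0.08 for Abstinence against Saline, 0.14 ± 0.08 for Abstinence against Maintenance and -0.23 ± 0.08 for Maintenance against Saline (adjusted p = 0.999, 0.597 and 0.202).

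Among further NF-kB target cytokines and chemokines, 12 of 18 had a log2 fold change above 0 in Maintenance against Saline, where 50.6% of all genes did (median 0.20), and 5 of 18 had an unadjusted p under 0.05, against 11.8% of all genes. Ccl7, a ligand of Ccr2 encoded in the same cluster as Ccl2 and Ccl12, had the smallest p there and in Abstinence against Maintenance. It averaged 31.5 ± 9.07 CPM in Abstinence, 59.0 ± 23.9 in Maintenance and 34.3 ± 14.7 in Saline. Its log2 fold change was -0.91 ± 0.28 for Abstinence against Maintenance (adjusted p = 0.132) and 0.78 ± 0.27 for Maintenance against Saline (adjusted p = 0.189).
For Abstinence against Saline the smallest p was that of Csf1, the growth factor of microglia, at 53.4 ± 7.19 and 40 ± 9.55 CPM (0.42 ± 0.17, adjusted p = 0.94). Il12b and Il23a did not pass the filter on low counts.

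The 10 genes varied together between libraries of the same group. After the group means of log2 CPM had been taken off, all 45 pairs of members had a positive correlation over the 23 libraries, with Pearson's r of 0.258 to 0.878 and a median of 0.606. By permutation of libraries within groups (100000 permutations, two-sided, Benjamini-Hochberg over the 45 pairs) 35 pairs passed an adjusted p of 0.05 by r and 37 by Spearman's rho. Pairs of other genes were not tested, so no share over all genes stands beside these counts. The closest pair was Il1a and Ccl4, with r = 0.878 and rho = 0.862 (permutation p = 1e-05 for both, the smallest that 100000 permutations can give, adjusted p = 7.5e-05 for r). Without the 2 libraries farthest from the median of Il1a, Saline replicate 8 and Maintenance replicate 8, r was 0.827.
Il1a with Ccl3 (r = 0.861), Il1a with Tnfaip3 (r = 0.856) and Ccl4 with Nfkbia (r = 0.854) followed. Averaged over the 9 other members, r was highest for Ccl4 (0.725) and Il1a (0.724) and lowest for Ccl12 (0.446) and Cxcl2 (0.41). The pair of lowest r was Ccl2 with Cxcl2, at 0.258 (rho = 0.341, adjusted p = 0.255 for r). Both genes of a pair come from 1 library and share its scaling. With RLE factors in place of TMM factors 32 of 45 pairs passed, and all 45 remained positive. Without the 2 libraries farthest from the median of the first gene of each pair, all 45 were positive too. Their r was then 0.144 to 0.83, with a median of 0.551. The lowest was Il1a with Ccl12, which had passed over all 23 libraries (r = 0.46, adjusted p = 0.0467 by permutation).

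Within single groups the pairs were closest in Saline. There r ranged from 0.624 to 0.959 over the 45 pairs (n = 8, median 0.834). In Maintenance it ranged from -0.348 to 0.959 (n = 8, median 0.65), and in Abstinence from -0.261 to 0.963 (n = 7, median 0.384). By coefficient of variation the Saline group was also the most spread in Il1a, Il1b, Tnf, Ccl2, Ccl3, Cxcl2 and Tnfaip3. For Il1a it was 14%, 16.5% and 23.7% in Abstinence, Maintenance and Saline. By the SD of log2 CPM, Tnf (0.356 against 0.319) and Ccl2 (0.374 against 0.340) were more spread in Maintenance than in Saline. Whether r differs between the groups was not tested.

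**Figure D3:**
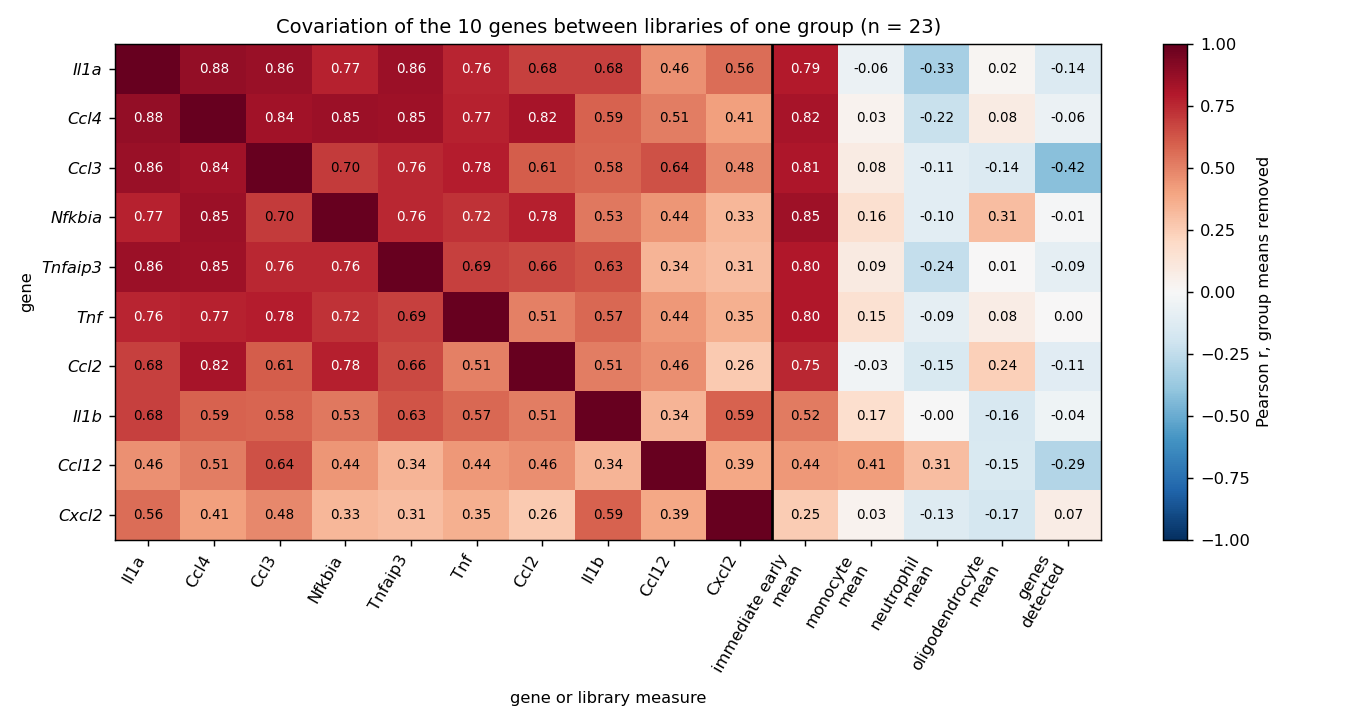
Pearson's r (colour and number) between log2 CPM of the 10 genes after group means were taken off, over 23 libraries, and right of the line r between each gene and library measures. All pairs of genes are positive, and the column of the immediate early gene mean holds values of 0.25 to 0.85.

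Library by library the same pattern is seen in the levels. Saline replicate 8 was lowest of its group in 8 of the 10 genes, for example at 300 CPM of Ccl3, and Saline replicate 1 was highest in 6, with 613 CPM of Ccl3. In Maintenance, replicate 8 was lowest in 7 genes and replicate 6 in 2, and in Abstinence replicate 6 was lowest in 6. Maintenance replicate 8 is the library with choroid plexus RNA. The part of that RNA in its low levels was not tested.

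Measures of the libraries were set beside the 10 genes in the same way, in 60 relations adjusted together. The mean log2 CPM of 14 immediate early genes, such as Fos, Jun and Egr1, which are transcribed within minutes of many stimuli, isolation of cells among them, was correlated positively with all 10 members, and 7 of these relations passed. The values of r were 0.847 for Nfkbia, 0.823 for Ccl4, 0.805 for Ccl3, 0.804 for Tnf, 0.802 for Tnfaip3, 0.792 for Il1a and 0.754 for Ccl2 (adjusted p of 0.0003 to 0.00129 by permutation). For Nfkbia rho was 0.772, and r was 0.767 without the 2 libraries farthest from its median. Il1b (r = 0.52), Ccl12 (r = 0.437) and Cxcl2 (r = 0.254) did not pass.
The summed level of the 14 genes ranged over 28408 to 34150 CPM in Abstinence, 22820 to 38128 in Maintenance and 27408 to 37461 in Saline, and their mean log2 CPM was 9.98, 9.88 and 9.96 in these groups. Of the 14 genes 0 were called in any comparison. Fosb had the smallest p in both contrasts of Abstinence, at 250 ± 37.0 CPM in Abstinence, 180 ± 37.7 in Maintenance and 191 ± 28.3 in Saline (0.47 ± 0.12 against Maintenance, adjusted p = 0.0509, and 0.39 ± 0.12 against Saline, adjusted p = 0.546). Atf3 had it in Maintenance against Saline (0.33 ± 0.13, adjusted p = 0.263).

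Markers of other cells that could supply these cytokines showed no relation with a member that passed between libraries of 1 group. The 10 relations were tested for each of the neutrophil, monocyte, border macrophage and oligodendrocyte lists and for the number of genes detected, and the smallest adjusted p by permutation was 0.758, 0.339, 0.42, 0.758 and 0.327. The summed CPM of the neutrophil markers was nevertheless uneven, at 13.6 to 165 in Abstinence, 8.23 to 188 in Maintenance and 47 to 925 in Saline. Of the 12 neutrophil genes, Mpo, Elane, Ngp, Camp and Ltf had a median of 0 in Abstinence and Maintenance and of 1.22 to 6.77 CPM in Saline. S100a8 had medians of 29.1, 39.1 and 50.6 CPM and Cxcr2 of 4.94, 6.43 and 4.68 CPM in Abstinence, Maintenance and Saline.
Monocyte markers summed to 23.6 to 81.4, 18.3 to 89.9 and 21.1 to 216 CPM in Abstinence, Maintenance and Saline. For Il1b, which neutrophils and monocytes also make, r with the neutrophil mean was -0.005 and with the monocyte mean 0.165. Border macrophage markers summed to 199.8 to 266 CPM in Abstinence, 212 to 424 in Maintenance and 195 to 375 in Saline. Oligodendrocyte markers summed to 1869 to 4811, 1337 to 5420 and 656 to 5487 CPM in these groups, with a mean log2 CPM of 6.85, 6.74 and 5.95. Of the 12 oligodendrocyte genes 10 had a log2 fold change above 0 in each contrast with Saline, 7 for Abstinence and 6 for Maintenance had an unadjusted p under 0.05 (4.39% and 11.8% of all genes), and 0 were called. The part of such cells in the differences between groups was not tested.

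**Figure D4:**
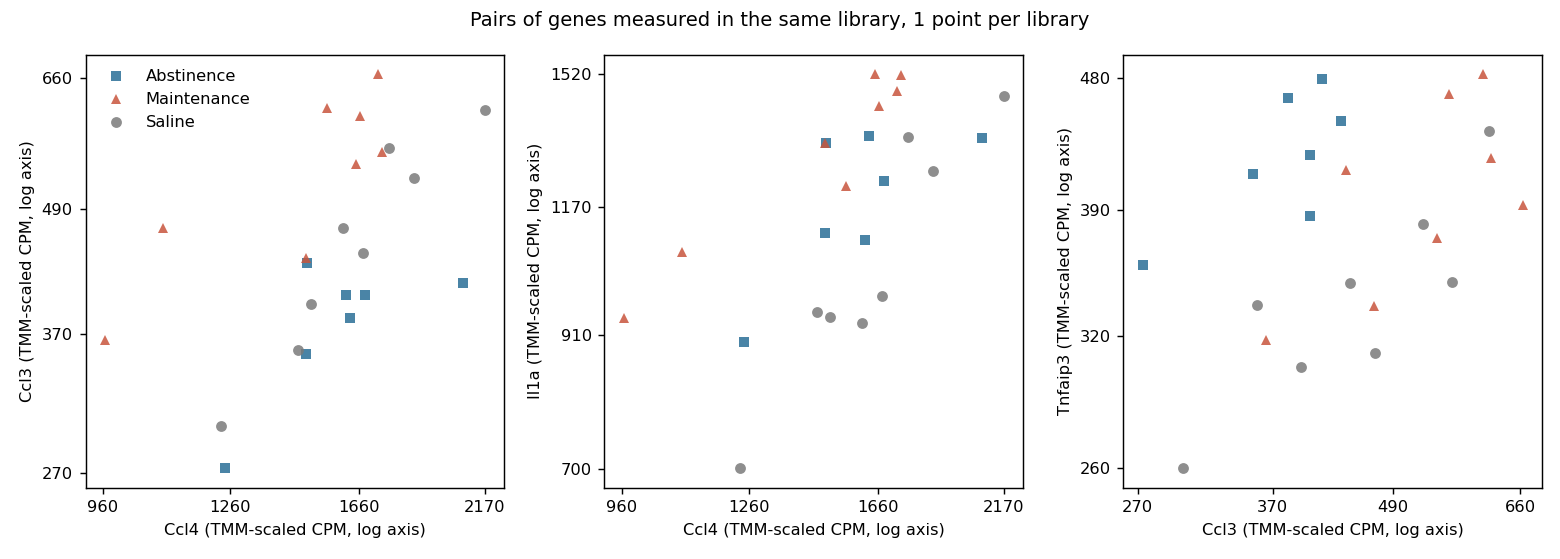
TMM-scaled CPM of 2 genes in the same library on logarithmic axes, 1 point per library, for Ccl3 against Ccl4, Il1a against Ccl4 and Tnfaip3 against Ccl3 in Abstinence, Maintenance and Saline. Within a group the points run upward, and in the third panel the Abstinence points lie at lower Ccl3 for a given Tnfaip3 than those of the other groups.

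Genes outside the 10 whose level followed theirs most closely were ranked by r with the mean of the members after centring by group, among 9064 genes whose log2 CPM averaged 2 or more. The first 8 were Atf3 (r = 0.931), Ccrl2 (0.91), Icam1 (0.893), Nfkbiz (0.89), Tgif1 (0.889), Rasgef1b (0.872), Ier3 (0.862) and Nr4a1 (0.84), all over 23 libraries. Of all 9064 genes, 90% had an r between -0.405 and 0.47. Atf3 is a transcription factor induced by stress, Icam1 is an adhesion molecule and Nfkbiz encodes a nuclear regulator of NF-kB. These values describe likeness of levels and carry no test.

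Because the members shared so much of their variation, their ratios within a library were compared between groups, a comparison added after the levels had been seen. A ratio of 2 genes in 1 library does not depend on the scaling of library size. All 45 ratios were tested in the 3 comparisons by exact two-sided permutation of the mean log2 ratio, and 42 of the 135 tests passed a Benjamini-Hochberg adjusted p of 0.05, of which 17 were in Abstinence against Saline, 15 in Abstinence against Maintenance and 10 in Maintenance against Saline. The ranges of the 2 groups did not overlap for 3, 2 and 1 of the 45 ratios in these comparisons. The ratios named below include all of these and are not typical of the 45. The adjustment covers ratios of these 10 genes, which were chosen with results of these data known. Ratios of other genes were not computed. In a subset of 17 libraries (7 Abstinence, 5 Maintenance and 5 Saline), those of the second deposited table, 2, 2 and 0 ratios passed in these comparisons. With 5 libraries in a group the exact test has fewer splits, and its smallest possible p is higher. These counts therefore cannot show whether the ratios hold in the subset.

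The ratio of Ccl3 to Ccl4 was 0.201, 0.239 and 0.292 at the lowest, median and highest in Abstinence, 0.296, 0.371 and 0.43 in Maintenance and 0.243, 0.273 and 0.318 in Saline. Abstinence and Maintenance did not overlap. The difference of mean log2 ratios was -0.60 for Abstinence against Maintenance (exact permutation p = 0.000311, adjusted p = 0.00599). It was 0.40 for Maintenance against Saline (exact permutation p = 0.000311, adjusted p = 0.00599) and -0.20 for Abstinence against Saline (adjusted p = 0.0672 by exact permutation).
With any 1 library left out, the difference between Abstinence and Maintenance ranged from -0.65 to -0.56 with an adjusted p of at most 0.0131, and without Maintenance replicates 6, 7 and 8 it was -0.50 (adjusted p = 0.017, exact permutation). These neighbouring genes overlap in the annotation, so the ratio carries the uncertainty of their counts.

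Relative to the feedback gene Tnfaip3, both chemokines were lower in Abstinence than in Saline. Ccl3 over Tnfaip3 was 0.763, 0.866 and 1.04 at the lowest, median and highest in Abstinence, against 1.06, 1.32 and 1.69 in Maintenance and 1.06, 1.34 and 1.61 in Saline. The Abstinence libraries overlapped with neither other group (log2 differences of -0.56 against Maintenance and -0.57 against Saline, exact permutation p = 0.000311 and adjusted p = 0.00599 for both). Ccl4 over Tnfaip3 was 3.3, 3.58 and 4.32 in Abstinence, 3.03, 3.61 and 4.42 in Maintenance and 4.34, 4.9 and 5.15 in Saline.
It was lower than in Saline in both groups with a drug history, by log2 differences of -0.37 for Abstinence (adjusted p = 0.00599, no overlap) and -0.41 for Maintenance (adjusted p = 0.00699, exact permutation). All 4 of these differences kept an adjusted p of at most 0.014 with any 1 library left out.

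Il1a stood higher relative to Ccl4 in both groups with a drug history. Il1a over Ccl4 was 0.648, 0.734 and 0.894 at the lowest, median and highest in Abstinence, 0.787, 0.884 and 0.981 in Maintenance and 0.568, 0.642 and 0.761 in Saline. Maintenance and Saline did not overlap (log2 difference 0.48, exact permutation p = 0.000155, the smallest that 8 against 8 libraries allow, adjusted p = 0.00599). For Abstinence against Saline the log2 difference was 0.23 (adjusted p = 0.0425, exact permutation), and it missed the threshold without Abstinence replicate 3 (adjusted p = 0.0795).
Il1a over Ccl3 was 2.72 to 3.51 in Abstinence and 1.99 to 2.67 in Saline, without overlap (0.42, adjusted p = 0.00599, exact permutation). The 2 ligands of Ccr2 differed as their levels did. Ccl2 over Ccl12 was 3.29, 4.82 and 6.62 at the lowest, median and highest in Abstinence, 1.82, 2.71 and 3.6 in Maintenance and 2.22, 2.77 and 3.87 in Saline (log2 differences of 0.86 against Maintenance, adjusted p = 0.0105, and 0.79 against Saline, adjusted p = 0.00699, exact permutation).

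**Figure D5:**
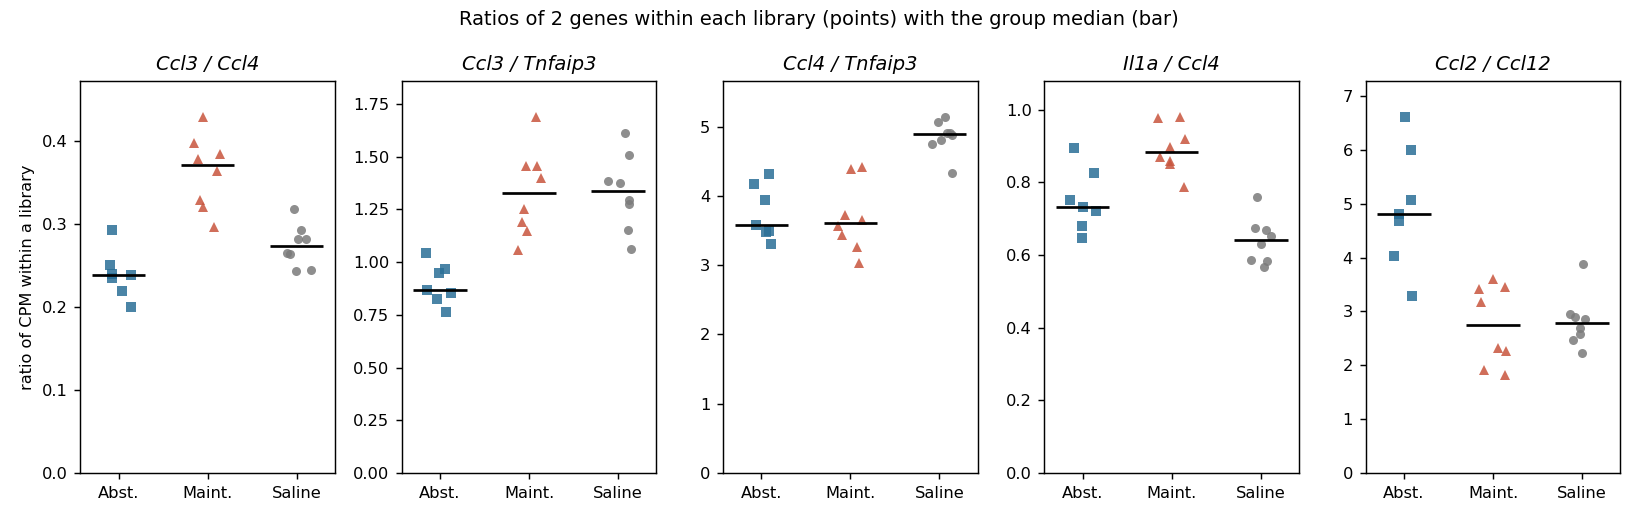
Ratio of the CPM of 2 genes in the same library (vertical axis, linear from 0, points) with the group median (bar) for 5 pairs in Abstinence (n = 7), Maintenance (n = 8) and Saline (n = 8). Abstinence lies below both other groups for Ccl3 over Tnfaip3, and Maintenance lies above Saline for Il1a over Ccl4.

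The fit across all genes was also made with the mean of the immediate early genes as a covariate, likewise added after the levels had been seen. It called 0 of the 10 members for Abstinence against Saline (0.0496% of all genes), 2 for Abstinence against Maintenance (1.23%) and 2 for Maintenance against Saline (0.701%), and 3 in the test over all groups (1.09%). Ccl3 was lower in Abstinence than in Maintenance by a log2 fold change of -0.61 ± 0.09 (adjusted p = 0.00057) and Ccl12 by -0.57 ± 0.14 (adjusted p = 0.0373). Il1a was higher in Maintenance than in Saline by 0.41 ± 0.08 (adjusted p = 0.0191) and Tnfaip3 by 0.31 ± 0.07 (adjusted p = 0.0249).
The calls of Ccl3 and Il1a held in all 23 fits that left out 1 library, with adjusted p of at most 0.00306 and 0.0439. That of Tnfaip3 held in 20 and was lost without Saline replicate 3 (0.0707) or Maintenance replicate 2 (0.0576) or 3 (0.056). That of Ccl12 held in 15 and was lost without each of Maintenance replicates 2, 3 and 5 and Abstinence replicates 2 to 6 in turn, with adjusted p of 0.0513 to 0.0942. Between Abstinence and Saline, Tnfaip3 had 0.31 ± 0.07 (adjusted p = 0.12), Ccl2 0.37 ± 0.11 (adjusted p = 0.439) and Ccl3 -0.28 ± 0.09 (adjusted p = 0.526) in this fit. The covariate was measured in the same RNA as the members, and what moved both was not tested.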

How the data were processed

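The labels' protocols describe total RNA of isolated striatal microglia and a library kit for low input. The submitters' processing notes name the build mm10 (GRCm38) and the tools DESeq2 1.38.3, StringTie 2.1.5, STAR 2.7.10a, cutadapt 1.18 and Trim Galore 0.6.7. Their order and settings, the strand and the isolation method are not given in the sources used here. Both deposited tables hold whole-number counts of reads per gene symbol, not normalized, as judged from their values. The second is nevertheless named as normalized. The first, with 35976 genes in 23 libraries, gave every result. The second held the same counts in 17 of the libraries and served only for its list of libraries. No column of values without a matching sample was present (0 columns).

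Genes were kept with filterByExpr by group (minimum count 10, minimum total 15), leaving 16121. All 23 libraries entered 1 edgeR 4.0.16 fit (R 4.3.3) with TMM factors and group as the only term: estimateDisp, robust glmQLFit, glmQLFTest, 3 contrasts and 1 test over all groups. Genes were called at a Benjamini-Hochberg adjusted p under 0.05 over all genes tested. The SE is that of the log2 fold change, and intervals are 95%. The scripts were tested on simulated data. Correlations used log2 CPM (prior count 2) after group means were taken off, with 100000 permutations of libraries within groups (numpy 2.4.6, scipy 1.17.1). Exact permutation tests were two-sided. Positions and promoters are those of RefSeq (GRCm38.p6). The strand and exons given with the positions, and the length used for levels per kb, are those of a GENCODE transcript. It was the longest of the gene that is matched to a curated RefSeq mRNA.

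The 10 genes and all lists were chosen with earlier results of these data known. All 10 are named in every comparison. From each list the text names the genes that passed or, where none did, the gene of smallest p, and 8 genes are named for likeness. Whether replicate numbers pair the libraries was checked: in 22 pairs of libraries with the same number, deviations from the group means correlated at -0.116 to 0.0919, 0 of them over 0.1, so the main fit has no block. Alternatives were RLE factors, no filter, DESeq2 1.42.0, only the compared groups, the replicate number as a block, sets of libraries left out, and the immediate early gene covariate. The covariate and the ratios were added after the data were seen. Depth of 54970954 to 94827095 counts gave each of the 10 genes at least 238 counts per library, and counting error covers only part of the spread. The NF-kB consensus searched in promoters replaced a looser pattern of the same kind after the matches of that pattern had been seen. A result of 1 gene of the receptor list is not reported here.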

Additional observations from a re-analysis of the deposited data

Results flagged for a closer look

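Among 30 sets of values (10 genes in 3 groups), 2 held a library that stood apart by Dixon's test of the gap to the nearest library over the whole range, where chance gives about 1 in 20. Ccl12, a ligand of Ccr2, had 79 CPM in Abstinence replicate 7, and the next highest Abstinence library had 56.5 CPM (gap over range 0.599, critical value 0.568). Nfkbia, the inhibitor of NF-kB, had 2756 CPM in Abstinence replicate 2, and the next had 2502 CPM (gap over range 0.597). Without Abstinence replicate 7, Ccl12 passed in Abstinence against Maintenance (log2 fold change -0.62, adjusted p = 0.0296, edgeR).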

How the results depend on the processing

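Genes called numbered 3 in Abstinence against Saline, 153 in Abstinence against Maintenance, 114 in Maintenance against Saline and 173 in the test over all groups. With DESeq2 they numbered 36, 452, 349 and 489, and 56, 238, 176 and 295 with the libraries of the second table. With only the compared groups in the fit the 3 contrasts gave 5, 64 and 57, and this setting does not apply to the test over all groups. Abstinence against Saline gave 15 without Maintenance replicates 6, 7 and 8 and 8 with the immediate early covariate. Leaving out 1 library gave 1 to 15, 89 to 265, 42 to 197 and 101 to 227. Of the 10 members, 2 were called in Abstinence against Maintenance (Ccl3 and Ccl12) with DESeq2, with the second table's libraries and with the covariate, and 0 to 2 with 1 library left out. The covariate fit called 2 in Maintenance against Saline. The test over all groups called 2 with DESeq2, 3 with the covariate and 0 to 1 with 1 library left out. The labels state no pairing by replicate number, and 1 of 23 libraries correlated best with its own number. Such correlations cannot show whether libraries of the same number were handled together. With the replicate block 69 genes were called in Maintenance against Saline, 2 members in Abstinence against Maintenance (Ccl3 -0.55, adjusted p = 0.0138, and Ccl12 -0.57, adjusted p = 0.0359) and 1 member in the test over all groups. Ratios of members that passed numbered 17, 15 and 10 in Abstinence against Saline, Abstinence against Maintenance and Maintenance against Saline. With the second table's libraries they numbered 2, 2 and 0, and with 1 library left out 11 to 18, 10 to 21 and 8 to 18. The exact test on the second table's fewer libraries cannot give p-values as small, so its counts are not comparable. Of the pairs of members, 35 passed with TMM factors and 32 with RLE factors, and pairs of other genes were not tested. The cause of these changes was not tested.

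The log2 fold changes below changed sign in some fits, and each was smaller than its SE in the main fit. The largest of them there were Tnf in Maintenance against Saline (-0.13 ± 0.14) and Ccl4 in Abstinence against Maintenance (0.11 ± 0.13). Without Maintenance replicates 6, 7 and 8, and with the second table's libraries, Tnf in Maintenance against Saline was 0.015 and 0.026, Ccl4 in Abstinence against Maintenance -0.053 and -0.058, and Tnfaip3 in Abstinence against Maintenance -0.012 and -0.018. With 1 library left out, Cxcl2 in Abstinence against Saline ranged from -0.19 to 0.11, Nfkbia from -0.045 to 0.016, Ccl4 from -0.12 to 0.0043 and Il1b from -0.00104 to 0.15. Il1b in Abstinence against Maintenance ranged from -0.095 to 0.028. In Maintenance against Saline, Ccl2 ranged from -0.049 to 0.11 and Nfkbia from -0.0033 to 0.078. The lowest of the 10 genes, Cxcl2, had at least 238 counts in a library, and what depth limits was not tested.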
